A study of Mus musculus with 6 samples.

Results

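The bone morphogenetic protein (BMP) ligands and receptors described here are 10 genes, chosen by name from the 18810 genes of the expression table. The ligands are Bmp2, Bmp4, Bmp5, Bmp6, Bmp7 and Bmp10, and the receptors are the type I receptors Bmpr1a, Acvr1 and Acvrl1 and the type II receptor Bmpr2. All 10 were found, each under a single Ensembl identifier. RNA was sequenced from atrioventricular canal regions, which hold the mitral, tricuspid and aortic valves, of C57BL/6 mouse hearts at embryonic day 15.5. There were 3 Scx-/- libraries (Scx null, with no functional Scleraxis) and 3 libraries of Scx+/+ wild-type littermates, and no other allele or treatment was named for either genotype. The tissue was dissected whole and no cell type was sorted, so that in every result fewer cells of a type and less RNA per cell cannot be told apart.

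BMPs are secreted dimers of the TGF-beta superfamily. They bring type I and type II receptor kinases together, the type II kinase activates the type I kinase, and this phosphorylates Smad1, Smad5 and Smad9, which enter the nucleus with Smad4 and act on targets such as the Id genes. In the early heart, BMP2 from the myocardium of the atrioventricular canal is known for promoting the transformation of endocardial cells into the mesenchyme of the cushions from which valves are made. The tissue studied here is of a later stage, when the cushions are remodelled into leaflets. Scx is a basic helix-loop-helix transcription factor of tendons and valves, and the comparison asks which of these genes differ in its absence.

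Values are RPKM, reads scaled to exon length and library depth, and come from 46429990 to 68571030 reads per library. For each gene the values of a genotype are listed in the order of replicates 1 to 3. Scx, counted over the whole gene, was 33.6, 18.6 and 82.9 RPKM among Scx-/- libraries against 29.5, 58.3 and 26.0 RPKM among Scx+/+ libraries. These values do not separate the genotypes and, since the table gives no value for the deleted part alone, they do not check the labels. The study measured the deleted exon separately before sequencing, and those data were not analysed here. Libraries are therefore named as labelled, and each direction below rests on those labels. Scx+/+ replicate 2 stood apart, with 56.9% of its summed RPKM in its 10 most abundant genes against 30.7% to 43.9% in the other libraries. RPKM were compared between genotypes as log2(RPKM + 0.1) with limma over all genes, and genes with an unadjusted p under 0.05 are termed called. By that rule 731 genes were called, 3.89% of all, with 2.82% higher and 1.06% lower in Scx-/-, and 0 genes passed an adjusted p of 0.05 in limma. The test that the study used, run gene by gene on the same log2 values, called 865 genes, of which 1 passed after adjustment. The median log2 fold change of all genes was 0.10, and a further fit set the median of each library to 0.

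Of the 10 BMP ligands and receptors, 1 was called, against the 3.89% called among all genes. This was Bmpr2, which was lower in Scx-/-, a direction in which 1.06% of all genes were called. No member was called higher, and 0 of the 10 passed at an adjusted p below 0.05 in limma. In none of the 10 were the genotypes free of overlap, as they were for 9.5% of all genes. The member with the largest difference, Bmp10, was not called. The gene-by-gene test that the study used called 0 of the 10, on log2(RPKM + 0.1) and on RPKM alike.

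As a measure of level, all 10 genes were above the common value that the authors put in place of low values in every library. They ranked by mean RPKM over the 6 libraries as Bmpr1a (35.2), Bmpr2 (14.4), Bmp10 (12.9), Bmp7 (8.68), Bmp5 (5.08), Acvr1 (3.02), Bmp4 (2.44), Acvrl1 (1.91), Bmp6 (1.4) and Bmp2 (1.08). Bmpr1a stood at percentile 90.3 of the protein-coding genes of the table and Bmp2 at percentile 21.5. Of the 9 pairs of neighbours in this order, 3 had the same order in all 6 libraries, namely Bmpr1a above Bmpr2, Bmp7 above Bmp5 and Bmp5 above Acvr1. For each of these 3 pairs the exact sign-flip permutation test of the differences within libraries, two-sided, gave p = 0.03125, the smallest that 6 libraries allow. Adjusted over the 9 pairs it was 0.0938, so that no neighbours differed past an adjusted 0.05. The order was itself taken from the means of these 6 libraries, so these p-values are no independent test of it. Bmpr2 was above Bmp10, and Bmp4 above Acvrl1, in 3 of 6 libraries, so these neighbours had no fixed order. Levels of different genes also depend on the gene models used for exon length.

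**Figure D1:**
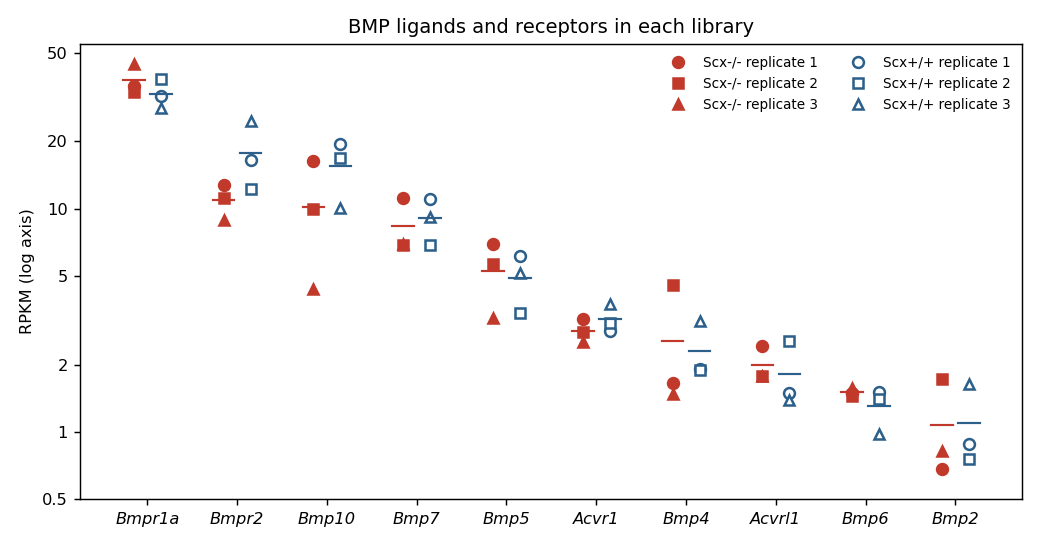
RPKM (log axis) of the 10 BMP ligands and receptors, in order of their mean level, in each Scx-/- (filled red) and Scx+/+ (open blue) library, where a short line is the mean of 3 libraries and the symbol shape is the replicate number. Bmpr1a lay between 28.1 and 44.4 RPKM and Bmp2 between 0.677 and 1.73 RPKM, and the genotypes overlapped in every gene.

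Bmpr2 encodes the type II receptor that most BMPs use. It maps to chr1:59821481-59927703 (ENSMUSG00000067336, mm9, plus strand), with 3507 bases of exon. It was 12.7, 11.2 and 8.92 RPKM among Scx-/- libraries against 16.5, 12.2 and 24.7 RPKM among Scx+/+ libraries, from 1869 to 5931 reads. The lowest values were those of Scx-/- replicates 3 and 2, the genotypes overlapped because Scx+/+ replicate 2 lay just under Scx-/- replicate 1, and Scx+/+ replicate 3 was far above the rest. Means were 10.9 ± 1.92 RPKM for Scx-/- against 17.8 ± 6.33 RPKM for Scx+/+ (SD, n = 3 each). limma put the difference at -0.65 on the log2 scale, with a standard error of 0.27 and an adjusted p of 0.967, a fold of 0.637 with a 95% interval from 0.417 to 0.971. The exact permutation test of the 2 genotypes, two-sided, gave p = 0.2, where 0.1 is the smallest that 3 against 3 libraries allow. With the library medians set to 0 the log2 fold change was -0.76, and Bmpr2 was again called, as were 1.94% of all genes in that direction. The call did not hold in limma without an intensity trend. With 1 library left out in turn, the log2 fold change ran from -0.89 to -0.39. The call held without Scx+/+ replicate 2 and was lost without each of the other 5 libraries, and the difference was smallest, at -0.39, without Scx+/+ replicate 3.

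Scx belongs to a family of factors known to bind the E-box, whose letters are CANNTG. The letters were searched in the 250 bases before the RefSeq start (GRCm38.p6) of the 7 members for which a promoter was matched, namely Bmp4, Bmp5, Bmp6, Bmp10, Bmpr1a, Bmpr2 and Acvr1. CANNTG, which reads alike on both strands, was found in 2 of the 7, with 3 matches for Bmp4 and 2 for Bmp6. It was found in 66.2% of 32851 promoters of the same length. CATCTG, searched on both strands and contained in CANNTG, was found in 0 of the 7 and in 14.4% of all promoters. These are descriptions of letters and not of binding. The promoters of Bmpr2 (chr1:59764029-59764278, plus strand), as the called member, of Bmp10 (chr6:87428744-87428993, plus strand), as the member with the largest difference, and of Bmp4 (chr14:46390670-46390919, minus strand), as the one with the most matches, are given with CANNTG in capitals.
Bmpr2: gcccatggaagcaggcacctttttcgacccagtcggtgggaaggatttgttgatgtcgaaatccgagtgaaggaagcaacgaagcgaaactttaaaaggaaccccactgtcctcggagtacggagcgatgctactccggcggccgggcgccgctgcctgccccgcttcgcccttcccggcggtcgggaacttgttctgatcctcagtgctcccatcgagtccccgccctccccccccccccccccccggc
Bmp10: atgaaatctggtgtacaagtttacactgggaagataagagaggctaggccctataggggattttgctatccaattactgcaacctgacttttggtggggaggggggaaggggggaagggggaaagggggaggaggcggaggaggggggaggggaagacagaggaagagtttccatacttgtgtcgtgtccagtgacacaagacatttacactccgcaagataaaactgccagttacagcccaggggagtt
Bmp4: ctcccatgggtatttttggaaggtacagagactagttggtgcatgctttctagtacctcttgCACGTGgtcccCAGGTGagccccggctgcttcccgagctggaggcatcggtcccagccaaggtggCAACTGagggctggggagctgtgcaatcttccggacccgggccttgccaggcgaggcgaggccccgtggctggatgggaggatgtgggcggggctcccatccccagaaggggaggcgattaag

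Bmpr1a encodes the type I receptor of BMP2 and BMP4, and was the most abundant of the 10. It maps to chr14:35223920-35316527 (ENSMUSG00000021796, mm9, minus strand). Its level was 35.6, 33.4 and 44.4 RPKM among Scx-/- libraries against 31.9, 38.0 and 28.1 RPKM among Scx+/+ libraries, from 11201 to 16842 reads. Scx-/- replicate 3 was the highest and Scx+/+ replicate 3 the lowest, and the genotypes overlapped. On the log2 scale the difference in limma was 0.21, its standard error 0.19 and its adjusted p 0.967, a fold of 1.16 with a 95% interval from 0.864 to 1.55. Whether it differed otherwise than Bmpr2 between the genotypes was not tested.

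The libraries with the most Bmpr2 had the least Bmpr1a. The ratio of Bmpr1a to Bmpr2, which does not depend on the scaling of a library, was 2.79, 2.99 and 4.98 among Scx-/- libraries against 1.93, 3.11 and 1.14 among Scx+/+ libraries. The genotypes overlapped, since Scx+/+ replicate 2 was above Scx-/- replicates 1 and 2. Bmpr2 made up 15.5% to 23.6% of the RPKM summed over the 4 receptors in Scx-/- and 21.9% to 42.6% in Scx+/+. The sum itself was 49.1 to 57.6 RPKM in Scx-/- and 52.7 to 57.9 RPKM in Scx+/+.

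Acvr1 encodes the type I receptor ALK2, which serves BMP6 and BMP7 above all, and maps to chr2:58241055-58419568 (ENSMUSG00000026836, mm9, minus strand). It was 3.20, 2.80 and 2.52 RPKM among Scx-/- libraries against 2.83, 3.07 and 3.74 RPKM among Scx+/+ libraries. The highest was Scx+/+ replicate 3, as for Bmpr2, and the lowest Scx-/- replicate 3. Its spread over all 6 libraries was the smallest of the 10, with a coefficient of variation of 13.9%. In limma its log2 fold change came to -0.17, with a standard error of 0.24 and an adjusted p of 0.970, a fold of 0.889 with a 95% interval from 0.606 to 1.3.

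Acvrl1 encodes ALK1, the type I receptor of endothelial cells that binds BMP10. It maps to chr15:100958953-100975767 (ENSMUSG00000000530, mm9, plus strand), 24.7 Mb from Scx on the same chromosome. Its level was 2.43, 1.78 and 1.78 RPKM among Scx-/- libraries against 1.5, 2.55 and 1.39 RPKM among Scx+/+ libraries. Scx+/+ replicate 2 was the highest and the other Scx+/+ libraries were the lowest, so that the genotypes overlapped fully. limma put the difference at 0.17 on the log2 scale, with a standard error of 0.33 and an adjusted p of 0.980, a fold of 1.12 with a 95% interval from 0.670 to 1.88.

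Bmp10 encodes the ligand of trabecular and atrial myocardium. It maps to chr6:87378996-87384506 (ENSMUSG00000030046, mm9, plus strand), with 1317 bases of exon. It was 16.3, 9.97 and 4.36 RPKM among Scx-/- libraries against 19.6, 16.9 and 10.03 RPKM among Scx+/+ libraries, from 343 to 1548 reads. Scx-/- replicate 3 was lowest of all, and Scx-/- replicate 1 was above Scx+/+ replicate 3, so that the genotypes overlapped. Means were 10.2 ± 5.99 RPKM for Scx-/- against 15.5 ± 4.93 RPKM for Scx+/+ (SD, n = 3 each). On the log2 scale the difference in limma was -0.73, its standard error 0.45 and its adjusted p 0.967, a fold of 0.601 with a 95% interval from 0.298 to 1.21, which reached both a large decrease and no change. It was not called. The log2 fold change was -0.22 without Scx-/- replicate 3 and -1.17 without Scx-/- replicate 1, when Bmp10 was called.

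Bmp10 is made by cardiomyocytes, and myocardial genes were abundant in all libraries. The RPKM summed over 10 cardiomyocyte markers were 23073, 19234 and 27934 among Scx-/- libraries against 19449, 30341 and 17016 among Scx+/+ libraries. The library with the least Bmp10, Scx-/- replicate 3, had a higher sum than 4 of the other 5. Myl2 and Tnnt2 gave the largest parts of that sum. Markers of atrial or trabecular myocardium on the list went both ways there. Nppa was second lowest, at 453 RPKM (407 to 1440 RPKM over all libraries), as was Myl7, at 355 RPKM (299 to 537 RPKM). Myh6, an atrial myosin gene, was second highest, at 1556 RPKM (900 to 2219 RPKM). These markers were picked out after their values were seen. Bmp10 set against them as a ratio was not tested.

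Bmp7 and Bmp5 encode closely related ligands of the developing myocardium and cushions. Bmp7 (chr2:172693513-172765822, ENSMUSG00000008999, mm9, minus strand) was 11.2, 6.88 and 6.93 RPKM among Scx-/- libraries against 11.1, 6.86 and 9.17 RPKM among Scx+/+ libraries. Replicate 1 of either genotype was the highest, and in limma its log2 fold change came to -0.13, with a standard error of 0.26 and an adjusted p of 0.980. Its fold of 0.915 had a 95% interval from 0.604 to 1.38. Bmp5 (chr9:75623171-75748117, ENSMUSG00000032179, mm9, plus strand) was 6.92, 5.63 and 3.25 RPKM among Scx-/- libraries against 6.11, 3.39 and 5.16 RPKM among Scx+/+ libraries. Its lowest values were in Scx-/- replicate 3 and Scx+/+ replicate 2. limma put the difference at 0.08 on the log2 scale, with a standard error of 0.33 and an adjusted p of 0.993, and the fold of 1.06 had a 95% interval from 0.628 to 1.78. Its sign turned with the library medians set to 0, at -0.03.

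Bmp2 and Bmp4 encode a closely related pair of ligands, of which BMP2 marks the myocardium of the atrioventricular canal and BMP4 the outflow tract. Bmp2 (chr2:133377895-133388621, ENSMUSG00000027358, mm9, plus strand) was 0.677, 1.73 and 0.824 RPKM among Scx-/- libraries against 0.886, 0.751 and 1.63 RPKM among Scx+/+ libraries, from 124 to 411 reads. Bmp4 (chr14:47003195-47010344, ENSMUSG00000021835, mm9, minus strand) was 1.66, 4.55 and 1.48 RPKM among Scx-/- libraries against 1.91, 1.89 and 3.13 RPKM among Scx+/+ libraries. Both genes were highest in Scx-/- replicate 2 and Scx+/+ replicate 3 and close together in the remaining 4 libraries. The ratio of Bmp4 to Bmp2 was 1.80 to 2.64 in all 6 libraries. In limma Bmp2 differed by -0.05 on the log2 scale, with a standard error of 0.46 and an adjusted p of 0.996, and Bmp4 by 0.00, with a standard error of 0.44 and an adjusted p of 1.00. The 95% intervals of the fold ran from 0.469 to 1.99 for Bmp2 and from 0.501 to 2.0 for Bmp4. These intervals were among the widest of the 10. With 3 libraries per genotype they do not tell no change from the other folds inside them. The direction of Bmp4 turned with the library medians set to 0, at -0.11, and without Scx-/- replicate 2 it was -0.49.

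Bmp6, a ligand of endothelial and myocardial cells, maps to chr13:38436995-38592183 (ENSMUSG00000039004, mm9, plus strand). It was 1.49, 1.45 and 1.58 RPKM among Scx-/- libraries against 1.51, 1.41 and 0.980 RPKM among Scx+/+ libraries. Scx+/+ replicate 3 was the lowest and the other 5 libraries lay close together, from 1.41 to 1.58 RPKM. On the log2 scale the difference in limma was 0.22, its standard error 0.31 and its adjusted p 0.969, a fold of 1.16 with a 95% interval from 0.713 to 1.90.

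As a group, the 6 ligands summed to 38.3, 30.2 and 18.4 RPKM among Scx-/- libraries against 41.1, 31.2 and 30.1 RPKM among Scx+/+ libraries. Scx-/- replicate 3 had the lowest sum, and the other 5 libraries overlapped. Bmp10 gave the largest part in 5 libraries, with 33.0% to 42.7% in Scx-/- replicates 1 and 2 and 33.3% to 54.2% in Scx+/+, and 23.7% in Scx-/- replicate 3, where Bmp7 led with 37.6%. Bmp5 was 17.6% to 18.6% of the sum in Scx-/- and 10.9% to 17.1% in Scx+/+. Bmp2 was at most 5.71% in any library. A share moves with the level of every other ligand and is given here without a test.

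**Figure D2:**
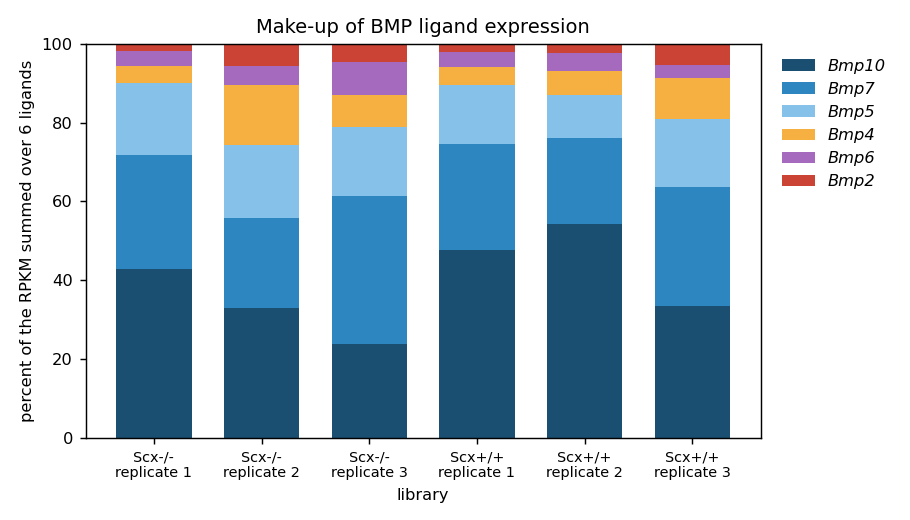
Percent of the RPKM summed over the 6 BMP ligands that each ligand gave (bar segments, starting at 0) in each of the 6 libraries. Bmp10, Bmp7 and Bmp5 make up most of every bar, and the Bmp10 segment is shortest, at 23.7%, in Scx-/- replicate 3.

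Over the 10 genes the log2 fold change was above 0 for 5 and below 0 for 5, with a median of -0.02 beside 0.10 for all genes. With the library medians set to 0 the median was -0.13. Of all genes, 63.8% had a log2 fold change above 0.

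**Figure D3:**
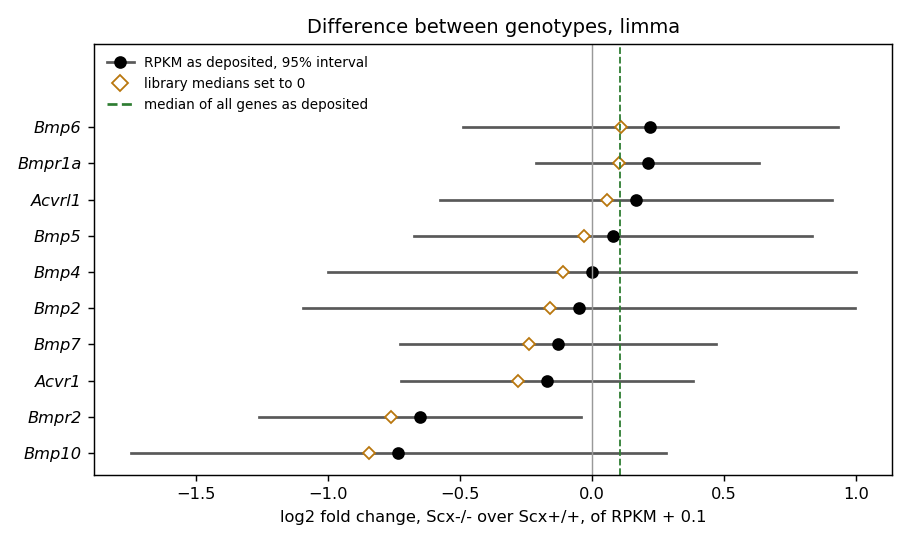
Log2 fold change of Scx-/- over Scx+/+ for each of the 10 genes (black points) with its 95% interval from limma (grey lines), and with the library medians set to 0 (open diamonds), where the dashed line is the median of all genes as deposited, 0.10. Bmpr2 is the only one of the 10 whose interval, from -1.26 to -0.04, does not reach 0, and the interval of Bmp2, from -1.09 to 0.99, is among the widest.

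Of the 45 pairs of these genes, 21 had a positive Pearson correlation of log2(RPKM + 0.1), 4 had an exact permutation p below 0.05, and 0 had one after Benjamini-Hochberg adjustment over the 45. Bmp2 and Bmp4 had the highest correlation (r = 0.935, exact permutation p = 0.0153, adjusted 0.3125, and rho = 0.829, exact permutation p = 0.0583, adjusted 0.842). Without the 2 libraries farthest from the median of Bmp2 it was 0.165, so that the relation rests on those libraries. Bmpr1a and Bmpr2 had the lowest correlation (r = -0.902, exact permutation p = 0.0208, adjusted 0.3125, and rho = -0.829, exact permutation p = 0.0583, adjusted 0.842), which was -0.536 without the 2 libraries farthest from the median of Bmpr1a. Scx-/- replicate 3 had the highest Bmpr1a and Bmp6 and the lowest Bmp4, Bmp5, Bmp10, Bmpr2 and Acvr1 of all 6 libraries. Scx+/+ replicate 3 had the highest Bmpr2 and Acvr1 and the lowest Bmpr1a, Acvrl1 and Bmp6.

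**Figure D4:**
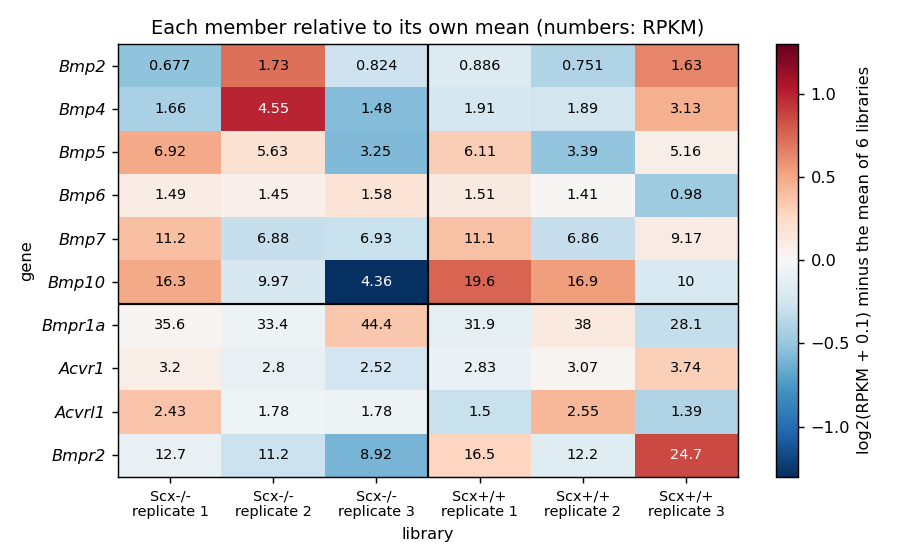
RPKM of each gene (numbers) in each library, coloured by log2(RPKM + 0.1) minus the mean of the 6 libraries of that gene, with Scx-/- left and Scx+/+ right of the vertical line and ligands above the horizontal line. Bmp2 and Bmp4 share their 2 highest libraries, Scx-/- replicate 2 and Scx+/+ replicate 3, and the deepest blue is Bmp10 at 4.36 RPKM in Scx-/- replicate 3.

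The other genes of the pathway were taken from 4 lists, by role. Of the 15 other BMP ligands, receptors and co-receptors, 7 were measured and 8 were not analysed here. In limma 0 of the 7 were called, and the gene-by-gene test also called 0. Acvr2a, a type II receptor shared with activins, was the most abundant, at 10.5 ± 0.866 RPKM on average for Scx-/- against 9.54 ± 1.79 RPKM for Scx+/+ (SD, n = 3 each). Eng, the endothelial co-receptor endoglin, was 3.39 ± 0.882 RPKM on average for Scx-/- against 4.18 ± 0.780 RPKM for Scx+/+ (SD, n = 3 each). Bmp15, a ligand of the ovary, was higher in every Scx-/- than in any Scx+/+ library without being called, as 7.19% of all genes were higher without overlap. It was 0.743, 0.385 and 0.202 RPKM among Scx-/- libraries, 0.162 RPKM in Scx+/+ replicate 3 and at the common low value in the other 2, and was picked out after its values were seen. The median log2 fold change of the list was -0.04.

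Of the 23 antagonists and modulators that act on BMPs outside the cell or at its surface, 15 were measured and 8 were not analysed here. Smoc1, a secreted matrix protein known to antagonize BMP signalling, was called and lower in Scx-/-, as were 1.06% of all genes. In this list 0 genes were called higher. The gene-by-gene test that the study used also called 1 gene of the list, Smoc1, on log2(RPKM + 0.1) and on RPKM alike. After adjustment 0 genes of the list passed in either. Smoc1 (ENSMUSG00000021136) was 0.590, 0.722 and 0.541 RPKM among Scx-/- libraries against 1.23, 1.10 and 1.38 RPKM among Scx+/+ libraries, from 108 to 331 reads. The 2 genotypes did not overlap and Scx-/- was the lower, which held for 2.31% of all genes. In limma its log2 fold change came to -0.90, with a standard error of 0.35 and an adjusted p of 0.967, and with the library medians set to 0 it was -1.01. Fstl1, a secreted glycoprotein and by far the most abundant gene of the list, was 152 ± 14.1 RPKM on average for Scx-/- against 128 ± 15.3 RPKM for Scx+/+ (SD, n = 3 each). Fstl1 and Dand5, an antagonist of the DAN family picked out after its values were seen, were higher without overlap and were not called. Of all genes, 7.19% were higher without overlap. Dand5 was 1.85, 1.97 and 1.84 RPKM among Scx-/- libraries against 1.55, 1.3 and 1.76 RPKM among Scx+/+ libraries. Twsg1, a BMP-binding protein, was 18.1 ± 1.28 and 16.7 ± 2.51 RPKM (SD, n = 3 each). Bmper, another BMP-binding protein, was highest in the same libraries as Bmp2 and Bmp4, with 3.07 RPKM in Scx-/- replicate 2 and 2.06 RPKM in Scx+/+ replicate 3 against 1.09 to 1.53 RPKM in the others, and was picked out after its values were seen. The median log2 fold change of the list was 0.12, close to that of all genes.

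All 13 signal transducers were measured, and 0 were called in limma or in the gene-by-gene test of log2(RPKM + 0.1). Their log2 fold changes lay between -0.34 and 0.18. Smurf2, a ubiquitin ligase that limits the pathway, was 16.0 ± 0.470 RPKM on average for Scx-/- against 14.3 ± 2.39 RPKM for Scx+/+ (SD, n = 3 each). Smad4, the partner shared with TGF-beta signalling, was 14.1 ± 1.31 RPKM on average for Scx-/- against 15.4 ± 1.65 RPKM for Scx+/+ (SD, n = 3 each). The median log2 fold change of the list was -0.01.

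All 18 genes known as BMP targets in the heart or in other tissues were measured, and 0 were called in limma or in the gene-by-gene test of log2(RPKM + 0.1). The most abundant were the transcription factors Tbx20, with 50.5 ± 14.0 RPKM on average for Scx-/- against 49.4 ± 13.5 RPKM for Scx+/+ (SD, n = 3 each), and Hey2, with 44.0 ± 10.1 and 40.9 ± 7.65 RPKM (SD, n = 3 each). Id1, the inhibitor of differentiation most used as a readout of the pathway, was 7.07, 5.28 and 9.29 RPKM among Scx-/- libraries against 6.29, 11.7 and 4.19 RPKM among Scx+/+ libraries. Its highest values were thus in Scx-/- replicate 3 and Scx+/+ replicate 2, and its lowest in the libraries with the most Bmp2 and Bmp4. Id2, another gene of the same family, was instead lowest in those first 2 libraries, at 19.3 RPKM in Scx-/- replicate 3 and 15.9 RPKM in Scx+/+ replicate 2, against 24.8 to 36.0 RPKM in the others. Id3 was highest in Scx+/+ replicate 2, at 20.0 RPKM, and 12.6 to 14.97 RPKM in the others. Id4 was highest in the same 2 libraries as Id1. It was 2.08 RPKM in Scx-/- replicate 3 and 2.02 RPKM in Scx+/+ replicate 2. Like Id1, it was lowest in Scx+/+ replicate 3, at 1.11 RPKM, and next lowest in Scx-/- replicate 2. These Id genes were picked out after their values were seen. Id1 and Id4 had nearly the same order over the libraries, and Id2 and Id3 had other orders. The median log2 fold change of the 18 was 0.12, and 13 of them were above 0.

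**Figure D5:**
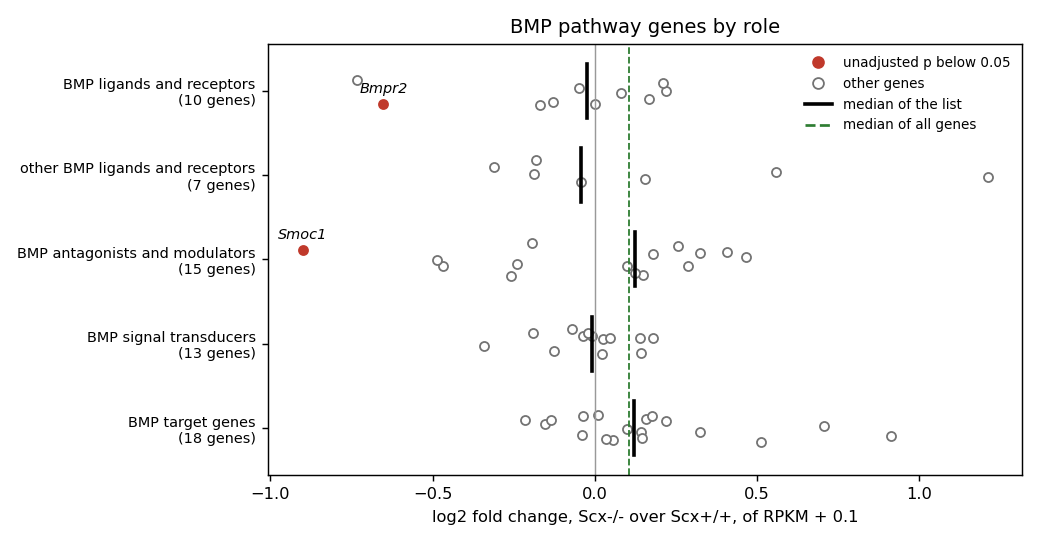
Log2 fold change of Scx-/- over Scx+/+ for every measured gene of the BMP ligands and receptors and of 4 lists of other pathway genes (points, red where the unadjusted p was below 0.05 in limma), with the median of each list (black bar) and of all genes (dashed line, 0.10). Bmpr2 and Smoc1 are the only 2 red points and both lie below 0, and the medians run from -0.04 to 0.12.

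Markers of the cells that the region could hold were compared beside these results. For all genes, the called shares were 2.82% higher and 1.06% lower, and the shares without overlap 7.19% higher and 2.31% lower. The myocardium was prominent, with Myl2 (5910 to 11634 RPKM) and Tnnt2 (3539 to 6694 RPKM) the highest of the 10 cardiomyocyte markers. Of these, Ryr2 and Myh7 were lower in every Scx-/- than in any Scx+/+ library and Ryr2 was called lower. The 10 endothelial and endocardial markers, led by Pecam1 and Tek, summed to 135 to 162 RPKM in Scx-/- and 134 to 152 RPKM in Scx+/+, with 0 called in limma. With the library medians set to 0, Cdh5 at -0.51 and Kdr at -0.44 on the log2 scale were called lower in limma, as were 1.94% of all genes. In the same fit Emcn (0.19), Egfl7 (0.13), Tek (0.09) and Esam (0.07) were above 0 and not called. The rest of that list were below 0 and not called. The genes named from this fit were picked out after their values were seen, and their genotypes overlapped. The 10 valve mesenchyme markers, led by Postn and Dcn, summed to 630 to 834 RPKM in Scx-/- and 540 to 631 RPKM in Scx+/+. Postn, the most abundant of them, ran from 161 to 387 RPKM over all libraries, and its genotypes overlapped. Lum was called higher, Dcn and Prrx1 did not overlap and were higher, and Col1a1 did not overlap and was lower. Of the 10, 9 were not called, and the log2 fold change was above 0 for 6 and below 0 for 4. The 8 epicardial markers, led by Tcf21 and Upk3b, summed to 30.8 to 36.7 RPKM in Scx-/- and 23.9 to 26.0 RPKM in Scx+/+ without overlap, and Tcf21, Upk1b and Aldh1a2 were called higher. All 3 of these calls were lost with the library medians set to 0, where the log2 fold changes were 0.46, 0.50 and 0.49. Of the 8 macrophage markers, led by Lyz2 and C1qa, Cd68 was called higher and 7 were not called. The log2 fold change was above 0 for 5 of the 8 and below 0 for 3. Cd68 was low, at 0.639, 1.54 and 0.812 RPKM among Scx-/- libraries against 0.358, 0.0949 and 0.476 RPKM among Scx+/+ libraries. Its Scx+/+ replicate 2 was at the common low value. Calls were 0 among smooth muscle markers (led by Acta2 and by Tagln, which did not overlap and was higher), erythroid markers (Hba-a1 and Hba-a2) and atrioventricular canal myocardium (Rspo3 and Bmp2). In this last list Rspo3 averaged 5.08 RPKM and Bmp2 1.08 RPKM over all libraries, and the other markers averaged less. Of those others, Tbx3 averaged 0.926, Cacna1g 0.776, Tbx2 0.484 and Hcn4 0.447 RPKM, all named after their values were seen. The part of these differences in the values of Bmpr2 and Smoc1 was not tested.

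For 3 members with a restricted source in the heart, the genes of most similar profile were sought among the 10781 protein-coding genes that averaged 1 RPKM or more, by the Pearson correlation of log2(RPKM + 0.1) over the 6 libraries. With so many genes and so few libraries, high values arise in number, and these are descriptions only. Most like Bmp10 were St6gal1 (0.997), Epb4.1l2 (0.995) and Coro1c (0.991), of 65 genes above 0.9. Most like Bmp2 were D430020J02Rik (0.977), Ociad2 (0.969) and Fcgr3 (0.964), of 21 genes above 0.9. Most like Acvrl1 were Rpl27-ps1 (0.996), Tubb2a (0.993) and Erh (0.991), of 313 genes above 0.9.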

How the data were processed

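The data are RPKM of 6 atrioventricular canal libraries, 3 per genotype. By the study's methods and the labels, the authors aligned reads to mm9 with TopHat 1.4.1, counted them within Ensembl exons with easyRNASeq and deposited RPKM without counts, having dropped genes that reached about 50 reads nowhere and set values of 10 reads or fewer to a common value, here 0.0949 RPKM. Symbols, positions and exon lengths came from GENCODE M1, of the same build, which held 18695 of the 18810 identifiers. Reads were recovered from RPKM and exon length, with the depth of each library set to the value that made reads whole. Within 0.1 read, 98.5% to 98.6% of values under 1000 reads were whole, as were all values of the 10 genes. These reads describe depth only, and no count test was run.

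limma 3.58.1 in R 4.3.3 was fitted to log2(RPKM + 0.1) over all 18810 genes without covariates, with a trend on intensity and with p-values adjusted by Benjamini-Hochberg. Single genes were also compared by an exact permutation test, in which the 3 against 3 design allows no p under 0.1. Other steps used Python 3.11.15 with scipy 1.17.1, pandas 2.3.3, numpy 2.4.6 and, for plots, matplotlib 3.10.9, and the fits were tested on simulated data. The alternatives were each library left out, a block for the replicate number, library medians set to 0, quantile normalization, one-way ANOVA per gene (the study's test) on log2(RPKM + 0.1) and on RPKM, no trend in limma, only the 13827 genes that averaged 1 RPKM or more, and pseudocounts of 0.01 and 1. Promoters were taken from RefSeq (GRCm38.p6), and 7 of the 10 genes were matched.

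The members and lists were chosen with earlier results of these data known. Named are the members, Scx, called genes and the 2 most abundant genes of each pathway list, the 2 most abundant and the non-overlapping genes of each marker list, and the 3 genes most like Bmp2, Bmp10 and Acvrl1. Other named genes are said to be picked after their values were seen, as were the pairs of members correlated. By the study's methods 3 embryos per genotype were dissected, as many as there are libraries. The result of 1 marker list is not reported here.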

Additional observations from a re-analysis of the deposited data

How the results depend on the processing

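Of the 150 log2 fold changes of the 10 genes under the 15 alternatives, 124 kept their direction and their side of the threshold, and no adjusted p was below 0.598 in limma or ANOVA. The number of the 10 genes called, 1 as reported, was 0 in limma without a trend, in ANOVA on log2(RPKM + 0.1) and in ANOVA on RPKM, and 0 to 1 with each library left out. The count over all genes, 731 as reported, ran from 539 to 1549 with each library left out, the highest without Scx+/+ replicate 2. It was 646 with library medians set to 0, of which 281 were higher and 365 lower in Scx-/-, and 705 after quantile normalization, of which 352 were higher and 353 lower. Of the other ligands and receptors, 1 gene, Bmp15, was called in limma without a trend, and 0 to 1 with each library left out. Of the antagonists and modulators, 0 were called when only genes averaging 1 RPKM or more were kept, since Smoc1 lay under it, and 1 to 2 with each library left out, as Bmp1 joined Smoc1 without Scx-/- replicate 3. Of the target genes, 0 to 1 were called with each library left out, Msx1 without Scx-/- replicate 3 and Hey1 without Scx+/+ replicate 2. Transducers had 0 calls under every alternative. For the order of levels, 2 of the 9 neighbouring pairs had ranges that did not overlap in the 3 Scx+/+ libraries.

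Signs turned only in genes that were not called. Bmp4 was 0.00 as reported and -0.0043 with a pseudocount of 0.01, -0.060 after quantile normalization and -0.11 with library medians set to 0, and ran from -0.49 to 0.29 with each library left out. Bmp5 was -0.0045 after quantile normalization and -0.030 with library medians set to 0, and ran from -0.16 to 0.39 with each library left out. Bmp2 ran from -0.42 to 0.26 and Bmp7 from -0.36 to 0.031 with each library left out. The cause was not tested.

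The labels do not say whether same-numbered libraries form pairs. Deviations from the genotype means correlated at 0.0921, -0.220 and -0.188 for same-numbered libraries. Scx-/- replicate 1 correlated best with its own number, and Scx-/- replicates 2 and 3 did not. Deviations sum to 0 within a genotype, which constrains these correlations, so they cannot decide whether the samples were paired. With the replicate block, 573 genes were called, 1 of the 10 genes was called, which was Bmp10 in place of Bmpr2, and 0 of the antagonists and modulators.

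The fewest reads of any of the 10 genes in a library were 124, for Bmp2, and 3 libraries per genotype limit the intervals of all 10.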
